A study of Mus musculus with 40 samples.

Results

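The loci of 10 genes of the bone morphogenetic protein (BMP) pathway were examined in a YFP reporter screen of genomic fragments, run in mouse cells that go from the embryonic stem cell to blood progenitors. The genes were Bmp4, Bmpr1a, Bmpr2, Smad1, Smad5, Smad6, Smad7, Id1, Id2 and Id3. A fragment was counted at a locus where its centre lay within the RefSeq gene body or within 25 kb of it (mm10), and overlapping fragments of all libraries were merged into regions. This gave 1176 fragments in 90 regions, out of 458486 fragments in 75060 regions in the whole series. Of the 1176, 884 were different fragments, since the same fragment could occur in several libraries. The 90 regions were counted whole, and 1 of them, at the far end of the Smad6 window, had 34 of its 35 fragments outside the window.

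All libraries came from 1 embryonic stem cell line, HM-1 (mouse strain 129/ola), whose Hprt gene does not function and is repaired when the reporter integrates there. Open chromatin had been cut into fragments with Tn5, and these were cloned upstream of the HSP68 minimal promoter and a Venus-YFP gene, so that each cell carried 1 fragment at the Hprt locus and not at its native place. The 5 stages began with ES, the embryonic stem cells, and went on with hemangioblast-like cells sorted for FLK1 (HB), hemogenic endothelium 1 (HE1, KIT+ TIE2+ CD41-), hemogenic endothelium 2 (HE2, KIT+ TIE2+ CD41+) and hematopoietic progenitors (HP, KIT+ TIE2- CD41+), differentiated in serum. At each stage cells had been sorted by YFP into Negative, Low, Medium and High gates, the Negative gate being set with cells that carried the minimal promoter alone, and 2 replicates gave 40 libraries in 20 groups. All stages received a mixture of the fragments of all stages, and no marker gene could check a stage, because only inserted DNA was sequenced. Per the methods, fragments were kept only where they lay in an open-chromatin (ATAC) peak of the stage. A locus without such a peak thus has no fragment in any gate of that stage.

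The 10 combinations of a stage and a replicate are called sorts below. Within a sort, positive fragments are those of its YFP gates (Low, Medium or High), each counted once, and negative fragments are those of its Negative gate. Where 5 values follow each other they run from ES through HB, HE1 and HE2 to HP. The labels do not say whether the replicates were separate transfections, so limma's p-values measure the spread between these samples, which may be technical, and the tests on fragment counts treat fragments as independent within a sort. Libraries held 4869 to 51146 fragments in replicate 1 and 654 to 31915 in replicate 2. In replicate 1, 69.8% of the fragments of the HE1 Negative library were also in the HE1 Medium library. At the 10 loci 86 of 125 (68.8%) of them were shared. In replicate 2, 65.5% of the ES Medium fragments were in the HE1 Low library, and at the loci 6 of 9 were. Between the HP gates of replicate 1 no fragment was shared. The part of this sharing in the results was not tested, apart from the comparison without shared fragments.

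BMP4 is a secreted ligand that patterns mesoderm and is needed for blood cells to form from it. It binds a complex of type I receptors such as BMPR1A and the type II receptor BMPR2, which phosphorylates SMAD1 and SMAD5, and these enter the nucleus with SMAD4. Among the genes that the pathway switches on are its own inhibitors Smad6 and Smad7 and the Id genes, whose products hold back basic helix-loop-helix transcription factors. BMP-activated SMADs are known to bind the GC-rich sequence GGCGCC, often a few bases from a SMAD box, GTCTG.

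The Id2 and Id3 loci held a spaced pair of these 2 motifs, GGCGCC and GTCTG with 5 bases between them, in 3 of their deepest regions. The pair was looked for after the sequences of the leading Id2 and Id3 regions had been seen, so its presence there is a description. Within 300 bp round the centre of a region it occurred in 3 of the 90 regions at the 10 loci and in 9 of 75043 regions of the series (0.0120%). Among regions of at least 20 fragments, the counts were 3 of 21 and 4 of 5530 (0.0723%). The 3 sites are shown because no region of another member had one in the 300 bp searched. The rest of each locus, promoters included, was not searched. The sites are given in the orientation that starts with GGCGCC, in capitals throughout:
Id2 chr12:25098853-25098868 minus strand: GGCGCCAGAGAGTCTG
Id3 chr4:136140540-136140555 plus strand: GGCGCCAGGCTGTCTG
Id3 chr4:136147981-136147996 plus strand: GGCGCCCGGATGTCTG

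The Id2 site was covered by 34 of the 72 fragments of its region, of which 26 came from a positive gate and 8 from Negative. The first Id3 site was covered by 36 of 83 fragments (27 positive and 9 negative) and the second by 29 of 65 (22 and 7). Over the 3 regions, 75 of 99 fragments that spanned a site were positive (75.8%, Wilson 95% interval 66.5 to 83.1). Of those that did not span it, 96 of 121 were positive (79.3%, 71.3 to 85.6), and the intervals overlapped. The entries were pooled over sorts, whose positive share outside the loci ran from 25.8% to 92.6%. The overlap therefore does not decide whether spanning a site matters. Each library entry was counted here, and intervals cover counting error only, since the inserts were amplified by 25 to 30 PCR cycles without molecular identifiers.

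To show what the leading regions hold, 200 bases round the point covered by most fragments are given below for both receptors, for Smad6 and for the Id genes on the plus strand (GRCm38, the assembly mm10 names). Capitals mark the motifs searched, which were GGCGCC (the GC-rich SMAD1/5 site), GTCTG (the SMAD box), GTCTAGAC (a palindromic SMAD site), TGANTCA (AP-1), AGATAAG (of GATA factors), TGTGGT (RUNX), GAGGAAGT (PU.1), GGAATG (TEAD), CAGCTG (E-box) and ATGCAAAT (OCT), on both strands:
Id3 chr4:136140382-136140581: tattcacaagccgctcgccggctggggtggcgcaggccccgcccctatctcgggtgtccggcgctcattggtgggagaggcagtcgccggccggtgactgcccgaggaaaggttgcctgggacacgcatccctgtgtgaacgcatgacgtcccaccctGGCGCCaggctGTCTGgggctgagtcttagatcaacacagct
Id2 chr12:25098802-25099001: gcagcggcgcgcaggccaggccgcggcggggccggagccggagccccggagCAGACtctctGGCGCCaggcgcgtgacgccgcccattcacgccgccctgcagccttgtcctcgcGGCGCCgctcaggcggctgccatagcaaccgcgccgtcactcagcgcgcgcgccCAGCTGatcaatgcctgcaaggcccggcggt
Id1 chr2:152741607-152741806: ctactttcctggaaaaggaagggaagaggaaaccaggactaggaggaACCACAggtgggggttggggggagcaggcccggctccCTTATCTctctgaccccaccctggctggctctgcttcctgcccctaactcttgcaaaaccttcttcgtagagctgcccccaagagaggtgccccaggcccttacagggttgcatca
Smad6 chr9:64045281-64045480: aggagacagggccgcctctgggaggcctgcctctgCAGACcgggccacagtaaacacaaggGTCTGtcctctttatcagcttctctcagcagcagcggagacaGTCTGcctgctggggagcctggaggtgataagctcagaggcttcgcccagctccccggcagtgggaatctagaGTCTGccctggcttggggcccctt
Bmpr1a chr14:34508295-34508494: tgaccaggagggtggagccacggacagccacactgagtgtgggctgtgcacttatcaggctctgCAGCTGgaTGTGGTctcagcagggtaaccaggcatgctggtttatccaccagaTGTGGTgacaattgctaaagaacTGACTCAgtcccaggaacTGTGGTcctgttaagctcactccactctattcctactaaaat
Bmpr2 chr1:59833831-59834030: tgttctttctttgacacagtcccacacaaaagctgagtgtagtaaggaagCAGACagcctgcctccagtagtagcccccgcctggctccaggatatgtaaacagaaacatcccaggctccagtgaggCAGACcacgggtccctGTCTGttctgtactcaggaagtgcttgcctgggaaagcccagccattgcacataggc

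In these stretches the Id2 region held 2 GGCGCC motifs, 1 SMAD box and 1 E-box. The Smad6 region held 4 SMAD boxes and no GGCGCC, and the Bmpr2 region 3 SMAD boxes. The Bmpr1a region held 1 AP-1 and 3 RUNX motifs beside 1 E-box, and the Id1 region 1 GATA and 1 RUNX motif. In the same stretch of leading regions not printed, Bmp4 had 1 SMAD box and 1 E-box, Smad1 had 1 SMAD box and 1 AP-1 motif, and Smad5 had none of the motifs. Over all 300 bp windows, GGCGCC occurred in 10 of the 90 regions at the loci (11.1%, against 3.22% of all regions). In regions of at least 20 fragments it occurred in 7 of 21 (33.3%, against 10.3% of 5530). The GTCTG box, which is common, occurred in 61.9% of the deep regions at the loci and in 60.9% of all deep regions. The palindromic site and the OCT motif, in none of the 90 windows, were also rare in the series (0.354% and 1.58% of regions). Fragments at the loci were also richer in G and C, with 61.7% in replicate 1 against 55.6% in the series and 56.6% in replicate 2 against 49.8%, and the part of base composition in the motif shares was not tested.

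**Figure D1:**
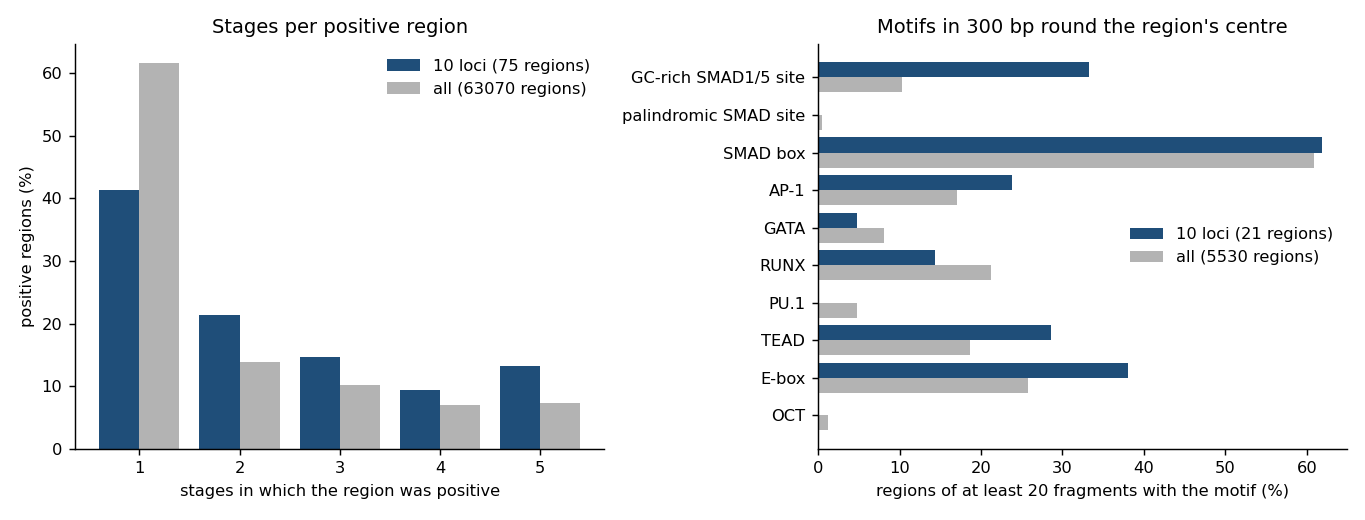
Left, share of positive regions (%) that were positive in 1 to 5 stages, for the 75 positive regions at the loci and all 63070. Right, share (%) of regions of at least 20 fragments with each motif in 300 bp, for 21 regions at the loci and all 5530. At the loci 13.3% of positive regions were positive in all 5 stages against 7.39% of all, and 33.3% of deep regions held the GC-rich SMAD1/5 site against 10.3%.

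Fragments were not spread evenly over the genes. Counted once per sort and gate class, the Id3 window held 44.6 fragments per 10 kb, more than 99.7% of the 20923 gene windows of the series, whose median was 1.02. The windows of Smad6 with 23.9, Smad7 with 23.0 and Id2 with 20.7 fragments per 10 kb were above 97.8%, 97.6% and 96.9% of windows. The Id1 and Bmp4 windows, with 12.7 and 12.1, were above 92.3% and 91.6%. The windows of Smad1 (6.67), Smad5 (6.15), Bmpr1a (2.39) and Bmpr2 (1.89) stood lower, above 83.0%, 81.7%, 64.1% and 59.8% of windows. Smad6, Smad7, Id1, Id2 and Id3 thus had more fragments per length than Bmpr1a and Bmpr2, as a count of recovered fragments and not of their strength. This order does not extend to such genes in general. Among the other pathway genes listed further below, receptors ran from 0.0523 per 10 kb (Bmpr1b) to 25.9 (Eng). Inhibitors there ran from 0.167 (Grem1) to 29.6 (Ski), and Id4 had 0.182.

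Of the 884 different fragments, 557 (63.0%) lay between genes, 286 (32.4%) in introns, 35 in exons that are not coding and 6 in coding exons. Within 1500 bp of a transcription start lay 93 fragments (7.91%, against 1.84% in the series). Of these, 65 were at Bmp4, 23 at Smad5 and 5 at Id3. Most regions were small, with a median of 3.50 fragments, and 33 (36.7%) had a single fragment, against 55.0% of all regions.

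**Figure D2:**
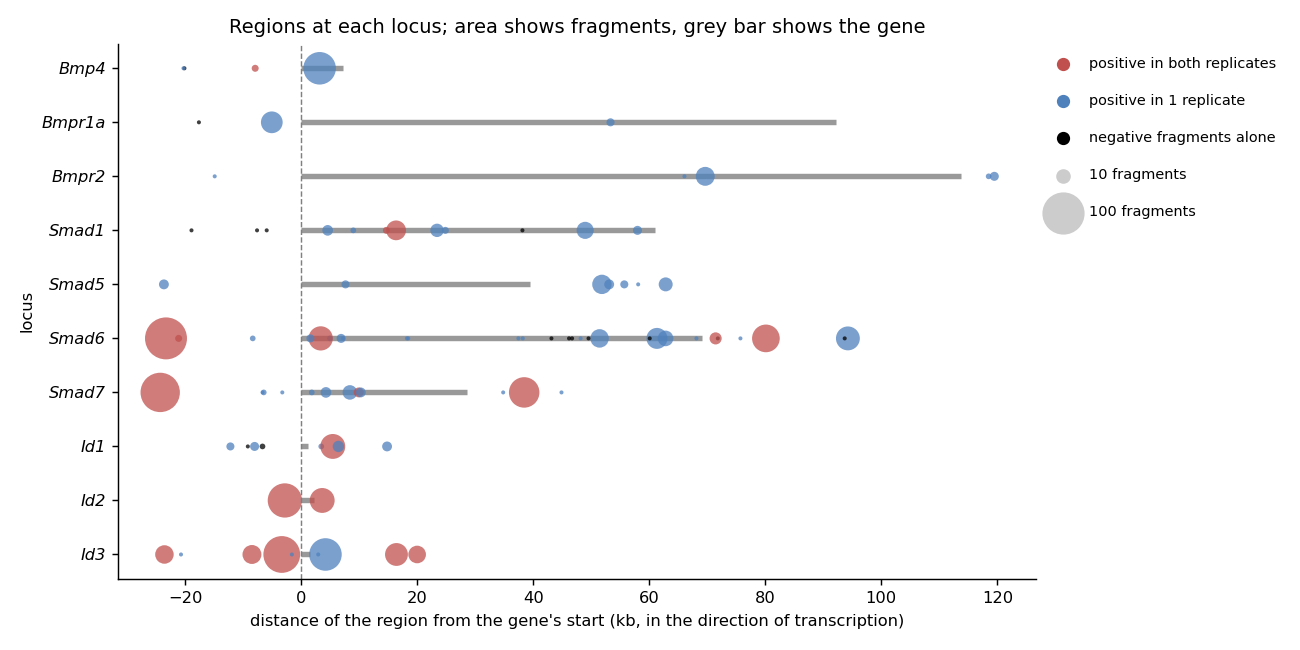
Each circle is 1 of the 90 regions, placed by the distance of its deepest point from the start of the gene (kb, in the direction of transcription), with an area that shows its fragments and a colour that shows in which replicates it was positive. The grey bar is the gene. The largest region, at Smad6, had 108 fragments, and 19 regions were positive in both replicates.

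Bmp4, the ligand, had 70 fragments in 4 regions, and 92.9% of them lay in 1 region, chr14:46387040-46387880. It was inside the Bmp4 gene, 3183 bp from its start, in an exon of the noncoding gene Gm15222 and 8 bp from that gene's start. In replicate 1 its positive fragments numbered 7, 5, 16, 11 and 6 along the 5 stages and its negative ones 3, 2, 11, 0 and 1. In replicate 2 it had 0 positive fragments at every stage and 2 negative ones at HP. All 5 stages were thus positive in 1 replicate and none in the other. Each replicate 2 sort was shallower than that of replicate 1 at the same stage. HE1 of replicate 2 held 34809 positive fragments, more than the 27717 of ES in replicate 1, where the region had 7. Its Low library alone held 31915 fragments, against 2693 in Medium and 1413 in High. At Smad5 and Bmpr2 many fragments of that Low library had near-identical ends, as given below. The cause of the difference between replicates was not tested.

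Bmpr1a, the type I receptor, had 34 fragments in 3 regions. Its leading region, chr14:34508114-34508673, lay between genes at -5059 bp from the gene's start and had 20 positive fragments (0, 3, 11, 2 and 4 along the stages), in replicate 1 alone. At ES the locus had no fragment of either kind. By depth alone this allows up to 1.08 positive fragments per 10000 in replicate 1 and 3.33 in replicate 2 (the limit of 3 counts). The part of the filter on open chromatin of the stage in this absence was not tested. Replicate 2 held 1 fragment of this locus in all, from the Negative gate. Bmpr2, the type II receptor, had 31 fragments in 5 regions, and none at ES or HB. The HB limit was 0.770 per 10000 in replicate 1 and 2.46 in replicate 2. Its leading region, chr1:59833775-59834074, lay in an intron 69652 bp from the start and was positive at HE1 (9 fragments), HE2 (6) and HP (3) in replicate 1. Over the whole Bmpr2 window, replicate 2 added 7 positive fragments at HE1 and 1 at HP, in other regions. All 7 at HE1 came from the Low library, 2 in 1 region and 5 in another. These came down to 1 and 2 after fragments with both ends within 5 bp were collapsed. An absence of both receptor loci at ES was not detectable at the depth of replicate 2, where the limit was above their level at every stage of either replicate. In replicate 1 the ES limit of 1.08 was also above every level of Bmpr2 in that replicate (highest 1.02). Replicate 2 gave Bmpr2 2.01 at HE1 and 1.92 at HP. Bmpr1a exceeded 1.08 at HE1 of replicate 1 alone, with 1.37.

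Smad1 and Smad5 encode the SMADs that carry the BMP signal. Smad1 had 77 fragments in 12 regions, none of them at ES (limit 1.08 per 10000 in replicate 1 and 3.33 in replicate 2). The replicate 2 limit was above its level at every stage of either replicate. The leading Smad1 region, chr8:79382754-79383467, lay in an intron 16366 bp from the start. That region had 21 positive and 3 negative fragments. In replicate 1 there were 0, 6, 5, 4 and 5 positive fragments along the stages, and in replicate 2 there was 1, at HE1. A second intronic region, chr8:79350154-79350670, had 12 positive and 5 negative fragments in replicate 1, in 3 stages for the positive ones, and 1 negative fragment in replicate 2, at HP. Smad5 had 56 fragments in 7 regions and none at HB (limit 0.770 per 10000 in replicate 1 and 2.46 in replicate 2, with 0.981 its highest level in replicate 1). Its leading region, chr13:56754649-56755024, lay past the gene's end, at -1020 bp from the nearest transcription start, and had 23 different fragments, every one from the Low library of HE1 in replicate 2. They came down to 13 after fragments with both ends within 5 bp were collapsed, and 60.7% of their bases were soft-masked repeat. Without that sort, no positive fragment of the region was left, and the 7.18 positive fragments per 10000 at Smad5 in HE1 of replicate 2 stood against 0.981 in replicate 1.

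Smad6 and Smad7 encode inhibitors that end the signal at the receptors. Smad6 had 295 fragments in 28 regions, the most of the 10 loci, of which 21 were positive and 5 positive in both replicates. The largest region, chr9:64044847-64045826, lay between genes at -23296 bp from the Smad6 start. The nearest transcription start, at -3916 bp, was of another gene. This largest region held 108 fragments from 34 libraries. Its positive fragments numbered 0, 13, 22, 21 and 13 in replicate 1 and 1, 1, 3, 2 and 1 in replicate 2. It was therefore positive in 9 of 10 sorts, all but ES of replicate 1, and negative fragments were found in the same 9 sorts. 1 fragment of this region, chr9:64045248-64045436, was found in 19 libraries, 17 of them of replicate 2 and 4 of them Negative. It was the only positive fragment of the region at ES, HB and HP of replicate 2. The region was thus positive at ES by this fragment alone. The region chr9:64017689-64019245, in an intron 3372 bp from the start, was positive in 7 sorts and all 5 stages, with 32 positive and 4 negative fragments. The region chr9:63941557-63942275, downstream of the gene, was also positive in 7 sorts and all 5 stages, with 33 and 13. In replicate 1 alone, positive fragments lay in 3 more intronic regions, chr9:63958938-63959748 (12 positive and 3 negative), chr9:63960341-63961102 (18 and 9) and chr9:63970458-63971052 (17 and 4). The region that reached beyond the window, chr9:63927427-63928274, had 26 and 8.

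Smad7 had 192 fragments in 12 regions, each of which was positive in at least 1 sort. No sequence is shown for it. The region chr18:75342533-75343460, at -24294 bp from the start, had 95 fragments with 73.6% G and C. In replicate 1 it had 11, 13, 17, 25 and 10 positive fragments along the stages. In replicate 2 it had 1, at HP. The region chr18:75405482-75405988, 38443 bp from the start and past the gene's end, had 57 fragments but only 22 different ones. Of its fragments 28 were positive and 21 negative, when counted per sort. A pair of its fragments that differed by 2 bp at 1 end were each found in 12 libraries of replicate 2, of which 5 were Negative.

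Id1, Id2 and Id3 are direct targets of BMP signalling. Id1 had 66 fragments in 8 regions, with the leading one, chr2:152741341-152742004, 5456 bp from the start and beyond the gene. In replicate 1 that region had 18 positive fragments at HE1, 7 at HE2 and 1 at HP, and in replicate 2 it had 1, at HB. Id2 had 110 fragments in only 2 regions, both of them positive in both replicates. The larger one, chr12:25098464-25099063, at -2810 bp, had 57 positive and 14 negative fragments and was positive in 6 sorts. In replicate 1 it had 7, 5, 25, 11 and 7 positive fragments along the stages, against 2 in replicate 2, both at HP. The other, chr12:25092129-25093053, lay 3628 bp from the start, beyond the gene, with 30 positive and 7 negative fragments in 7 sorts.

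Id3 had 245 fragments in 9 regions, all of them positive and 5 positive in both replicates. Its largest region, chr4:136140177-136141088, lay at -3340 bp from the start, in an intron of Gm42329. It had 60 positive and 21 negative fragments and was positive in 8 sorts and all 5 stages. Its positive fragments in replicate 1 numbered 5, 6, 16, 11 and 19 along the stages, and in replicate 2 there was 1 each at HB, HE1 and HE2. The region chr4:136147534-136148554, 4191 bp from the start and beyond the gene, had 50 positive and 14 negative fragments, with no positive one in replicate 2. The region chr4:136159869-136160418 lay 16429 bp from the Id3 start and nearer, at -12023 bp, to the start of another gene. It was positive in 9 sorts with 14 positive and 9 negative fragments, but held only 11 different fragments. 1 of these, chr4:136159869-136160270, was in 18 libraries, all of replicate 2, and 4 of them were Negative. Another 3 regions were positive in both replicates, chr4:136120052-136120544 with 15 positive and 5 negative fragments, chr4:136134366-136135686 with 13 and 8, and chr4:136163591-136163961 with 13 and 5. The last of these lay 19994 bp from the Id3 start and at -8458 bp from the start of another gene.

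To set the stages side by side, positive fragments of a locus were taken per 10000 positive fragments of the sort. At Smad6, replicate 1 gave 3.25, 9.50, 5.69, 7.75 and 6.55 along the stages, and replicate 2 gave 7.76, 4.10, 4.31, 5.76 and 9.60. The lowest stage was ES in replicate 1 and HB in replicate 2, and both replicates were above 0 at every stage. At Smad7 replicate 1 gave 5.77, 3.34, 3.43, 4.97 and 3.02, highest at ES, and replicate 2 gave 3.33, 3.28, 2.87, 8.64 and 7.68, highest at HE2. At Id3 replicate 1 gave 5.41, 3.59, 5.79, 4.68 and 7.31, highest at HP, and replicate 2 gave 1.11, 3.28, 2.87, 5.76 and 3.84, highest at HE2. Smad6, Smad7 and Id3 were the only loci of the 10 with positive fragments in all 10 sorts. Without the fragments found in 12 or more libraries, a check chosen after seeing the data, positive fragments in replicate 2 went from 34 to 29 at Smad6, from 24 to 16 at Smad7 and from 19 to 14 at Id3. Smad6 and Smad7 then still had positive fragments in all 10 sorts, and Id3 in 9, since its only positive fragment at ES of replicate 2 was the one found in 18 libraries.

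Replicate 1 of Id2 gave 3.97, 3.59, 3.24, 2.19 and 2.52, while replicate 2 gave 0, 0.819, 0, 0 and 5.76. At Bmp4 replicate 1 gave 2.53, 1.28, 1.57, 1.61 and 2.27 in the same order, and replicate 2 was at 0 but for 0.287 at HE1. Positive fragments occurred in 8 of 10 sorts at Id1, 7 at Id2, 6 each at Bmp4 and Smad5, 5 each at Bmpr2 and Smad1 and 4 at Bmpr1a. These locus levels rest on few fragments in replicate 2, in which the ES, HE2 and HP sorts held fewer than 10000 positive fragments in all (9020, 3471 and 5208). The HE1 sort of replicate 2 held 34809, more than ES of replicate 1 with 27717, but its Low library alone held 31915 fragments. Id2 was at 0 in that HE1 sort, against 3.24 in HE1 of replicate 1. The cause of this difference between replicates was not tested.

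**Figure D3:**
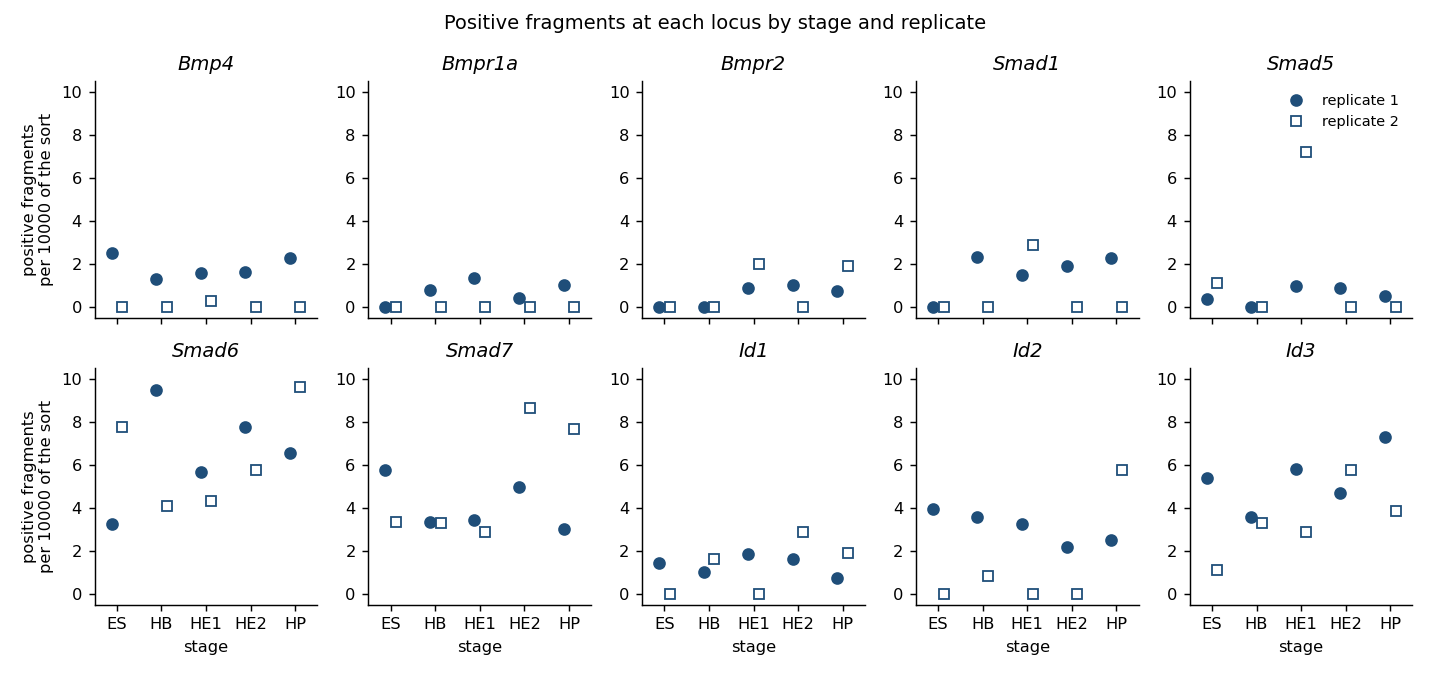
Positive fragments of each locus per 10000 positive fragments of the sort (y axis) at each stage (x axis), with 1 point per sort, filled for replicate 1 and open for replicate 2. Smad6, Smad7 and Id3 were above 0 in all 10 sorts (Id3 at ES of replicate 2 by 1 fragment), and the open square at Smad5 in HE1 (7.18) comes from the sort whose Low library holds the leading Smad5 region.

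Whether a locus changed between stages was tested with limma's moderated F test on log2(value + 1) over gene windows with at least 20 positive fragments. Across the series 0 of 6854 windows passed an adjusted p of 0.05 (0%), with 14 at an unadjusted p under 0.05. At the 10 loci all adjusted p were 1.00. The lowest unadjusted values were 0.145 for Smad5 and 0.344 for Bmpr2. This fit had stage alone and left out the pairing by replicate number. With the replicate as a block, 196 windows were at an unadjusted p under 0.05 and 0 passed after adjustment. The unadjusted p of Smad5 was then 0.0423 and its adjusted p 0.948. No stage difference was therefore shown at any of the loci, and levels at 0 in a replicate could not be told from low ones.

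Positive and negative fragments were compared next, with a Cochran-Mantel-Haenszel test over the 10 sorts as strata, which sets the positive fragments of a window against the number expected from the sort's totals. Over all loci 852 positive and 280 negative fragments were counted per sort (75.3% positive, against 76.8% in the series). Of 7932 windows tested 4 were called at an adjusted p of 0.05 (0.0504%), 1 with more and 3 with fewer positive fragments than expected. None of the 10 loci was called, each had an adjusted p of 1.00, and 0 were under 0.05 before adjustment, against 270 of the windows tested. Observed over expected positive fragments came to 1.08 at Id2 (87 observed, 95% interval 0.976 to 1.19) and 1.08 at Bmpr2 (27 observed, 0.920 to 1.25). It was 0.929 at Id1 (0.794 to 1.06), 0.933 at Bmp4 (0.805 to 1.06), 0.939 at Bmpr1a (0.752 to 1.13) and 0.947 at Id3 (0.879 to 1.02). At Smad1 it was 0.956 (0.847 to 1.06), at Smad7 0.977 (0.900 to 1.05), at Smad6 0.983 (0.924 to 1.04) and at Smad5 0.988 (0.875 to 1.10). The median of the 10 ratios was 0.967, and that of all windows 1.00. Each of the 10 intervals held 1.

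**Figure D4:**
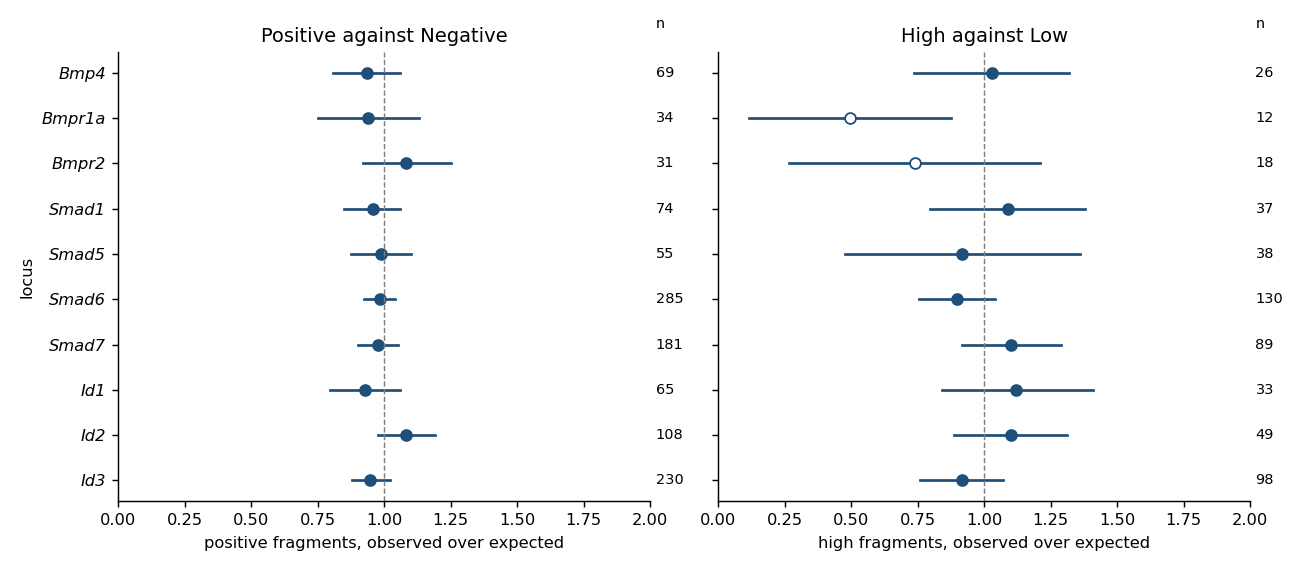
Observed over expected number of positive fragments (left, against Negative) and of High fragments (right, against Low) at each locus, with 95% intervals, n the fragments compared and open points for loci under 20 fragments, which were not tested. On the left every interval holds 1. On the right that of Bmpr1a, from 12 fragments, lies below 1.

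By sort, the share of positive fragments at the loci was below that elsewhere in 8 of 10. In replicate 1 it was 71.6% (Wilson 95% interval 61.4 to 80.0), 81.8% (74.0 to 87.7), 68.2% (63.4 to 72.6), 91.6% (86.9 to 94.7) and 79.3% (71.7 to 85.2) along the stages. Elsewhere in the same sorts it was 72.8%, 82.2%, 71.1%, 89.0% and 82.4%. In replicate 2 it was 66.7% (43.7 to 83.7), 64.0% (44.5 to 79.8), 88.6% (80.3 to 93.7), 42.1% (23.1 to 63.7) and 37.2% (24.4 to 52.1). Elsewhere it was 76.2%, 80.0%, 92.6%, 56.0% and 25.8%. The mean difference over sorts was -3.73 percentage points ± 8.0 (SD, n = 10), smaller than the spread between sorts. Within replicate 1 it was -1.04 ± 2.32 and within replicate 2 -6.42 ± 11 (SD, n = 5 each).

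Of the 280 negative fragments, 117 (41.8%) were also positive in the same sort, against 36.3% in the series. Among the different fragments 79.3% were found in 1 library and 10 (1.13%) in both replicates, against 81% and 0.956% of all fragments. Fragments identical at both ends were thus rarely found in both replicates. Regions were positive in both more often, though most were not. Of 75 positive regions at the loci, 19 (25.3%) were positive in both replicates, against 8.14% of 63070 in the series. Among them 31 (41.3%) were positive in 1 stage and 10 (13.3%) in all 5, against 61.6% and 7.39%. With the replicates thinned to equal depth in each stage (20 draws), 26.4% of positive regions at the loci and 7.99% of all were positive in both. Regions at the loci also held more fragments, with a median of 3.50 against 1.00. The part of this, and of the filter on open chromatin of each stage, in the shares was not tested.

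Single regions were tested in the same way. Of 5530 regions with at least 20 fragments in the series, 10 were called (0.181%), all with fewer positive fragments than expected. None of the 21 such regions at the loci was called, with ratios from 0.790 to 1.11 and a median of 0.969, 9 of them above 1. Of the 21, 20 held negative as well as positive fragments, the exception being the Smad5 region from a single library. 10 of the 21 were positive in all 5 stages. The lowest p was at the downstream Smad7 region chr18:75405482-75405988, the only 1 of the 21 under 0.05 before adjustment (191 of all regions), with a ratio of 0.790 (0.631 to 0.949). It was 0.0158 before adjustment and 1.00 after it. Its positive and negative fragments were 11 and 7 at HE1 and 5 and 2 at HE2 in replicate 1. In replicate 2 the positive ones were 0, 3, 4, 3 and 2 and the negative ones 2, 2, 3, 3 and 2 along the stages.

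Brighter and dimmer cells were compared by setting High against Low fragments in the same way. Of 5094 windows 1 was called (0.0196%). Bmpr2 and Bmpr1a had 18 and 12 such fragments and were not tested, and none of the other 8 was called, each with an adjusted p of 1.00 and 0 under 0.05 before adjustment (255 of all windows). The ratio of observed to expected High fragments was highest at Id1, with 1.12 (21 High and 12 Low, 0.840 to 1.41), and lowest among the tested loci at Smad6, with 0.898 (62 and 68, 0.753 to 1.04). It was 1.10 at both Smad7 (0.916 to 1.29) and Id2 (0.885 to 1.31), 1.09 at Smad1 (0.796 to 1.38) and 1.03 at Bmp4 (0.736 to 1.32). It was 0.918 at Smad5 (0.478 to 1.36) and 0.916 at Id3 (0.758 to 1.07). At Bmpr1a 4 High and 8 Low fragments were seen with 8.07 High expected (0.496, 0.115 to 0.876). By count alone, Low, Medium and High held 48, 85 and 50 fragments at Id3, 16, 40 and 33 at Id2 and 30, 8 and 8 at Smad5. Of the 30 Low fragments at Smad5, 25 came from the HE1 Low library of replicate 2, and 5 were left without it.

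Another 28 genes of the pathway were taken as a list. Of these, 16 had at least 20 fragments, and none was called in either direction (0 under 0.05 before adjustment), with 8 ratios above and 8 below 1 and a median of 0.996 (0.967 for the 10 loci). In High against Low 10 were tested and none was called (2 under 0.05 before adjustment), with a median ratio of 1.01. By role, 1 of 5 ligands, 4 of 6 receptors, 2 of 2 other SMADs, 2 of 5 extracellular inhibitors, 3 of 5 other inhibitors and 4 of 5 further targets and partners reached 20 fragments. Among the ligands Bmp6 alone reached it, with 20 positive fragments and a ratio of 0.813.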

How the data were processed

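The 40 libraries are inserts of a reporter cassette amplified from genomic DNA of sorted cells. Per the submitters' processing notes and the methods, the authors trimmed reads with Trim Galore and aligned pairs to mm10 with Bowtie2. They kept well-mapped proper pairs, reduced repeated fragments to 1 and filtered against a background library. Fragments were then kept in open chromatin defined by DNaseI, with an ATAC peak of the same stage. Tool versions are not given in the sources used here. The values the authors deposited are start and end coordinates in base pairs, 1 list of distal fragments per library, with no read count or score, so each fragment counts once and depth is the number of fragments. Few fragments lay within 1500 bp of a RefSeq start. PCR can turn 1 molecule into several fragments with shifted ends, so fragments are not fully independent, and intervals and limits for a count of 0 cover counting error only.

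Genes, exons and sequence came from RefSeq GRCm38. Libraries were grouped by the stage, gate and replicate in their titles. Windows were coding genes with 25 kb on each side, and windows or regions with at least 20 fragments were tested. The Cochran-Mantel-Haenszel test with continuity correction and Benjamini-Hochberg adjustment over all windows or regions used the 10 sorts as strata. limma 3.58.1 (R 4.3.3) tested stages on log2(positive fragments per 10000 + 1). Other steps used Python 3.11.15, pandas 2.3.3, numpy 2.4.6, scipy 1.17.1 and samtools 1.23.1. Both tests were tried on simulated counts drawn independently for each window. These held no shared or near-identical fragments, so they do not show how the tests behave with such fragments. Replicate numbers were taken to pair the samples. Deviations of same-numbered sorts from their stage means correlated between stages (r from 0.323 to 0.488 over 10 stage pairs and 7932 windows). Sorts were therefore kept as strata in the tests on fragment counts. Replicate 2 was shallower at every stage, and the part of depth in this correlation was not tested, so it does not establish the pairing. The main limma fit had stage alone and left this pairing out, and an alternative took the replicate as a block. The genes and lists were chosen with earlier results of these data known. Named were all 10 loci, the region with most positive fragments at each and every region of at least 15 fragments. The other pathway genes are given by counts. Alternatives changed the window, the depth minimum, the strata, the gates taken as positive and the treatment of near-identical and shared fragments, and left out each sort.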

Additional observations from a re-analysis of the deposited data

How the results depend on the processing

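At the 10 loci, no alternative that was run brought a window or region past an adjusted p of 0.05 (lowest 0.0737, Smad5 in High against Low without the replicate block, where the ratio was 0.447). In positive against Negative, the 4 called windows of the series became 12 with 50 kb on each side, 11 without fragments in both gates, 7 with a minimum of 10 fragments, 2 with a minimum of 50 and 0 when near-identical fragments were collapsed. The 10 called regions became 17, 5 and 0 under the last 3 of these and 3 with Medium and High as positive. The 1 window called in High against Low became 3 with 10 kb, 7 with 50 kb, 5 with a minimum of 10, and 0 with a minimum of 50, after collapsing or without shared fragments. Counts of calls this small turned on few windows, and the cause was not tested. With 5 stages as strata and no replicate block, the counts were 8 windows, 23 regions and 95 windows in High against Low, and with the replicate block limma called 0 (196 at an unadjusted p under 0.05).

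With single sorts or whole replicates left out, calls ranged from 2 (without replicate 1 or 2) to 5 windows (without HE1 replicate 1), from 5 (without replicate 2) to 17 regions (without HP replicate 2), and from 0 to 7 windows in High against Low (7 without ES replicate 1). limma called 0 to 1, the 1 without HP replicate 1.

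Ratios close to 1 crossed it without any call. For positive fragments, Smad5 gave 1.00 with 50 kb and 1.08 without the replicate block, Smad6 1.00 with 10 kb, and Smad7 1.00 with 50 kb and 1.02 without shared fragments. Without shared fragments the leading Id1 region gave 1.04, the Smad6 region mostly outside its window 1.01 and the Id3 region beyond the gene 0.993, and with Medium and High the leading Smad6 region gave 1.01. For High fragments, Smad1 gave 0.993 without the replicate block, Smad5 1.07 and Id1 0.960 with 50 kb, and Smad7 0.961 with 10 kb. Leaving sorts out moved positive ratios over 0.910 to 1.04 (Smad1), 0.894 to 1.02 (Smad5), 0.950 to 1.00 (Smad6) and 0.902 to 1.00 (Smad7), and over 0.929 to 1.04, 0.975 to 1.00 and 0.963 to 1.12 for the regions at Smad6 mostly outside the window, at Smad6 upstream and at Id3 beyond the gene. High ratios moved over 0.912 to 1.11 (Bmp4), 0.562 to 1.04 (Smad5) and 0.909 to 1.39 (Id1). The difference in positive share stayed between -6.42 and -1.04 points, and the share of regions positive in both replicates between 21.8% and 26.4%. With a median of 17.5 fragments per library at the loci, depth limits every comparison by stage.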
